A study of Homo sapiens with 10 samples.

Results

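The DNA damage repair and checkpoint genes of 22RV1 cells were followed in newly made and in total RNA after 4 hours of kinase inhibition. The set holds 54 genes of the 31015 genes to which a 3' end interval could be assigned. It comprises 10 genes of homologous recombination, 4 of end resection, 11 of the Fanconi anaemia pathway, 3 helicases, 4 structure-specific nuclease genes, 4 of end joining, 8 checkpoint genes, 6 of the chromatin response to breaks, and 4 of single-strand break and mismatch repair. The members were listed by name as the class of genes known to depend on CDK12, in a list drawn up with earlier results of these data known.

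22RV1 is a cell line from a human prostate cancer that grows without androgen. Each of the 5 groups had 2 libraries. Cells received no drug (control), THZ531 (an inhibitor of CDK12, 100 or 150 nM because the sources differ), SRPIN340 (20 µM, an inhibitor of SRPK1), Endovion (50 µM, also called SCO-101 and used as an SRPK1 inhibitor), or THZ531 together with Endovion, called the combination below. All 10 libraries were labelled with 4-thiouridine for the last 10 min, so that RNA made in that window carries T-to-C conversions in the reads. None of the 10 lacked the label, so the conversions that arise without it could not be measured and are counted as well.

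CDK12 is a cyclin-dependent kinase that phosphorylates the C-terminal tail of RNA polymerase II while genes are transcribed. Loss of its activity is known to lower the full-length transcripts of DNA repair genes, and polyadenylation inside introns is one known way in which such transcripts end early. Homologous recombination and the Fanconi anaemia pathway repair double-strand breaks and crosslinks, the checkpoint kinases ATR and CHEK1 hold the cell cycle meanwhile, and cancer cells that lack these functions are known for sensitivity to PARP inhibition.

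The libraries held 35517462 to 53592904 mapped reads and 1011595 to 1576106 reads with a T-to-C conversion (T>C reads, taken as nascent RNA) on genes. The members together held only 1990 to 3607 of these T>C reads per library, or 0.194% to 0.236%. Levels below are in CPM, the T>C reads (nascent CPM) or all reads (total CPM) of a gene per 1000000 such reads on genes after TMM scaling of the libraries. All 9 prostate markers were detected in every library, from TMPRSS2 at 1.03 total CPM upwards. Of 9 markers of blood, fibroblast, endothelial and liver cells, 7 were at or near 0, and COL1A1 (1.57 to 3.51 CPM) and ALB (8.20 to 13.4) were read in every library. Nothing in the labels says that the 2 libraries of a group came from separate cultures, so the p-values measure the spread between these libraries, which may be technical. Values are scaled to each library, so a change shared by all genes would not be seen, and in bulk RNA fewer cells of a type and less RNA per cell cannot be told apart.

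In nascent RNA, THZ531 lowered 7 members and raised 2 of the 44 that had enough T>C reads to test, at an adjusted p under 0.05. Among all 9946 genes tested, 3.6% fell and 3.86% rose. BARD1, XRCC2, RAD50, BRIP1, FANCF, ERCC4 and TOPBP1 fell, and CHEK1 and PARP1 rose. Their choice by the test on these same libraries favours a gap between THZ531 and control libraries. Nothing further is read from such gaps below. At the study's limit, an unadjusted p under 0.05 with a log2 fold change of 1 or more in size, 10 members fell and 1 rose, against 6.33% and 5.66% of all genes tested. The median log2 fold change of the 44 members was -0.12, beside -0.02 for all genes tested, and it became -0.36 without THZ531 replicate 1 and 0.06 without THZ531 replicate 2. The 35 members that passed in neither direction lay on both sides of 0.

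**Figure D1:**
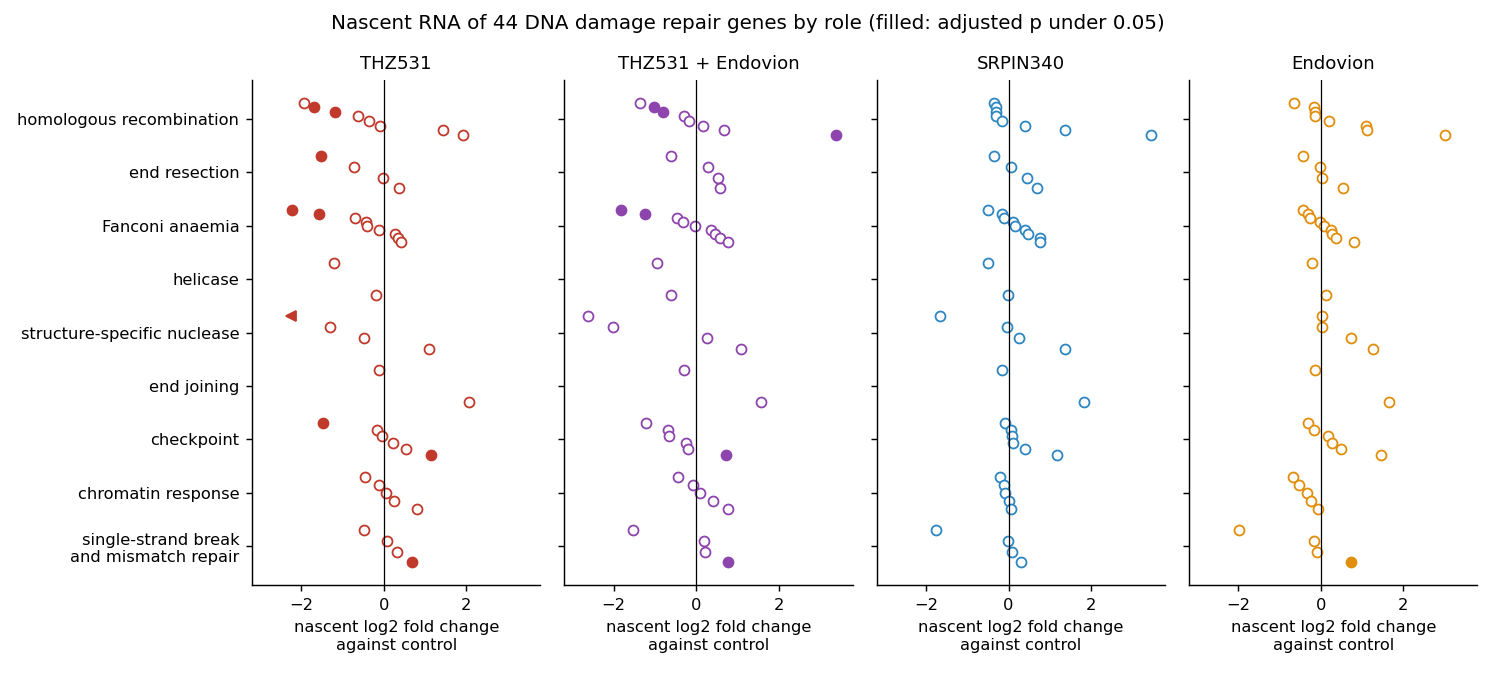
Nascent log2 fold change against control (horizontal axis) of the 44 tested members, grouped by role, with 1 panel per treatment. Filled points passed an adjusted p of 0.05 (THZ531 9 members, combination 7, SRPIN340 0, Endovion 1), and the triangle marks ERCC4 at the bound of a 4.76-fold fall because both THZ531 libraries held 0 T>C reads.

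Homologous recombination copies the sequence around a break from the sister chromatid. Of its 10 genes 8 were tested, and 2 fell with THZ531 while none rose. XRCC2, a factor of homologous recombination (chr7:152644776-152676193 in hg38, minus strand), had 102 and 99.5 nascent CPM in control, 33.2 and 28.5 with THZ531, 45.8 and 54.1 with the combination, 82.5 and 74.5 with SRPIN340, and 64.5 and 63.5 with Endovion. Both THZ531 libraries and both combination libraries lay below all other libraries. With THZ531 the log2 fold change was -1.70 ± 0.29 SE, adjusted p = 4.80e-05, and with the combination the log2 fold change was -1.02 ± 0.28 (SE), adjusted p = 0.0135. The combination no longer passed without control replicate 1 (-0.98, adjusted p = 0.0552), control replicate 2 (-1.04, adjusted p = 0.0599) or combination replicate 1 (-0.90, adjusted p = 0.173). The XRCC2 interval is followed in the genome by 17 A among 20 bases, beside a median of 3 over intervals with at least 1000 reads. At the best covered ends of the other members that passed with THZ531 this number was 10 in FANCF and 9 in TOPBP1 and CHEK1. It was 6 in RAD50, 5 in BARD1, 4 in BRIP1, 3 in ERCC4 and 1 in PARP1. Whether such stretches affect the counts was not tested.

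BARD1, the partner of BRCA1 in a ubiquitin ligase (chr2:214725646-214809683 in hg38, minus strand), had 126 and 154 nascent CPM in control, 71.6 and 48.8 with THZ531, 97.4 and 62.0 with the combination, 110.3 and 116 with SRPIN340, and 124 and 129.9 with Endovion. The THZ531 libraries did not overlap with any library that lacked THZ531. It fell (log2 fold change -1.19 ± 0.25 SE, adjusted p = 8.07e-04), and without THZ531 replicate 2 the log2 value was -0.96 (adjusted p = 0.0647). With the combination it was -0.80 ± 0.25 (SE), adjusted p = 0.0283, and it no longer passed without control replicate 2 (-0.65, adjusted p = 0.231) or combination replicate 2 (-0.52, adjusted p = 0.346). BRCA1 itself went from 70.2 and 69.0 nascent CPM in control to 44.9 and 45.8 with THZ531, and did not pass (log2 fold change -0.62 ± 0.29 SE, adjusted p = 0.2). BRCA2, a mediator of recombination at breaks, was read by 19 and 18 T>C reads in control and by 2 and 6 with THZ531, and did not pass (log2 fold change -1.94 ± 0.84 SE, adjusted p = 0.156). PALB2, which bridges BRCA1 and BRCA2, passed the filter on low counts through its treated libraries. It had 0 and 3 T>C reads in control, 6 and 5 with THZ531, 10 and 17 with the combination, 17 and 23 with SRPIN340, and 16 and 7 with Endovion. Only the combination passed (adjusted p = 0.0257), with no fold given at these control counts, and it no longer passed without control replicate 1 (adjusted p = 0.193) or combination replicate 2 (adjusted p = 0.187).

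End resection trims the broken end so that recombination can start. RAD50, a subunit of the MRN complex with MRE11 and NBN, was the member of this group of 4 that passed with THZ531. It had 25.1 and 61.0 nascent CPM in control, 17.6 and 11.2 with THZ531, 33.9 and 21.6 with the combination, 30.4 and 35.7 with SRPIN340, and 41.4 and 21.2 with Endovion. The lower control library lay among the combination and Endovion libraries, while both THZ531 libraries lay below all others. The log2 fold change was -1.52 ± 0.44 (SE), adjusted p = 0.0226. It was -0.76 (adjusted p = 0.504) without control replicate 2, -1.92 (adjusted p = 0.0547) without THZ531 replicate 1 and -1.27 (adjusted p = 0.239) without THZ531 replicate 2. RAD50 also shares its strand and part of its span with the annotated gene ENSG00000283782. Of the other 3 genes NBN had the most T>C reads in control, and its log2 fold change was 0.36 ± 0.31 (SE), adjusted p = 0.559.

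The Fanconi anaemia pathway unhooks crosslinks between DNA strands. Of its 11 genes 9 were tested, and FANCF and BRIP1 fell with THZ531 and with the combination. FANCF, an adaptor of the core ubiquitin ligase complex, is a gene of 1 exon and 3.29 kb (chr11:22622533-22625823 in hg38, minus strand). It had 83.0 and 64.2 nascent CPM in control, 11.1 and 21.4 with THZ531, 33.9 and 6.88 with the combination, 78.5 and 82.0 with SRPIN340, and 57.5 and 65.4 with Endovion. The 4 libraries that received THZ531 lay below the other 6. It fell with THZ531 (log2 fold change -2.24 ± 0.40 SE, adjusted p = 1.08e-04), a 4.73-fold decrease, and with the combination (log2 fold change -1.81 ± 0.38 SE, adjusted p = 0.00108). The 2 combination libraries differed 4.92-fold from each other, and without the lower one, replicate 2, the log2 fold change of the combination was -1.12 (adjusted p = 0.0957).

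BRIP1, also known as FANCJ, is a helicase that binds BRCA1 and spans 184 kb (chr17:61679139-61863559 in hg38, minus strand). It had 92.0 and 94.7 nascent CPM in control, 38.4 and 22.4 with THZ531, 28.8 and 50.2 with the combination, 70.4 and 61.3 with SRPIN340, and 62.9 and 75.03 with Endovion. The THZ531 and combination libraries again lay below the rest. The log2 fold change with THZ531 was -1.58 ± 0.31 SE, adjusted p = 4.18e-04, and with the combination the log2 fold change was -1.25 ± 0.31 (SE), adjusted p = 0.0054. Without combination replicate 1 the latter was -0.90 (adjusted p = 0.21). FANCA had the most T>C reads in control of the other 7 tested genes, and its sum over the gene did not pass (log2 fold change -0.13 ± 0.30 SE, adjusted p = 0.862). Its 2 separate 3' ends are described below.

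The helicases BLM, RECQL and WRN unwind recombination and replication intermediates, and neither of the 2 that were tested passed in nascent RNA against control. RECQL, with the most T>C reads of the 3, lay at 57.3 and 61.0 nascent CPM in control and at 48.2 and 54.9 with THZ531 (log2 fold change -0.20 ± 0.32 SE, adjusted p = 0.785). BLM lay at 43.1 and 26.5 in control and at 18.2 and 11.2 with THZ531, with no overlap, but did not pass (log2 fold change -1.21 ± 0.43 SE, adjusted p = 0.0691).

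The structure-specific nucleases cut branched DNA. ERCC4, also called XPF, the catalytic subunit of the ERCC1 nuclease (chr16:13920138-13952348 in hg38, plus strand), had 22 and 12 T>C reads in control, 0 and 0 with THZ531, 0 and 4 with the combination, 18 and 18 with SRPIN340, and 14 and 31 with Endovion. The THZ531 libraries were the only pair without a single T>C read. Against a floor of 3 reads per library ERCC4 was at least 4.76-fold lower with THZ531 (adjusted p = 0.00166). The scaffold SLX4 had 29 and 19 T>C reads in control and 14 and 4 with THZ531 (log2 fold change -1.30 ± 0.63 SE, adjusted p = 0.223).

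End joining religates breaks directly. Of its 4 genes only PRKDC, the catalytic subunit of DNA-dependent protein kinase, and POLQ, a polymerase, could be tested. PRKDC varied little, from 31.4 to 44.3 nascent CPM over all 10 libraries (log2 fold change -0.11 ± 0.35 SE, adjusted p = 0.915). POLQ passed the filter through treated libraries and had 1 and 3 T>C reads in control.

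Checkpoint genes moved in opposite directions. TOPBP1, which activates ATR (chr3:133598175-133662380 in hg38, minus strand), had 100.4 and 97.1 nascent CPM in control, 29.9 and 41.7 with THZ531, 61.9 and 62.0 with the combination, 127 and 80.7 with SRPIN340, and 77.5 and 100.04 with Endovion. The THZ531 libraries were the 2 lowest and the combination libraries came next. The log2 fold change with THZ531 was -1.49 ± 0.29 SE, adjusted p = 3.09e-04, and with the combination the log2 fold change was -0.67 ± 0.27 (SE), adjusted p = 0.12. CHEK1, the kinase that ATR activates (chr11:125625163-125676255 in hg38, plus strand), had 138 and 101 nascent CPM in control, 218 and 312 with THZ531, 203 and 196 with the combination, 100.1 and 126 with SRPIN340, and 120.5 and 171 with Endovion. All 4 libraries with THZ531 lay above all control, SRPIN340 and Endovion libraries. It rose 2.20-fold (log2 fold change 1.14 ± 0.21 SE, adjusted p = 1.53e-04). With the combination it was 0.73 ± 0.21 (SE), adjusted p = 0.0191, and it no longer passed without control replicate 2 (0.53, adjusted p = 0.255), combination replicate 1 (0.70, adjusted p = 0.141) or combination replicate 2 (0.76, adjusted p = 0.0723). TIMELESS, a replication fork protein, had similar numbers of T>C reads and lay from 100.04 to 152 nascent CPM in all libraries (log2 fold change 0.22 ± 0.21 SE, adjusted p = 0.619).

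The chromatin response genes spread ubiquitin marks and the TP53BP1 platform around breaks, and none of the 5 tested passed in nascent RNA with any treatment. RNF168, a ubiquitin ligase and the one with the highest median T>C count over the libraries, lay at 45.7 and 58.6 nascent CPM in control and 60.5 and 62.0 with THZ531 (log2 fold change 0.24 ± 0.30 SE, adjusted p = 0.728). In single-strand break and mismatch repair, PARP1, the sensor of breaks that PARP inhibitors target (chr1:226360210-226408154 in hg38, minus strand), had 205 and 169 nascent CPM in control, 253 and 349.8 with THZ531, 318 and 327 with the combination, 191 and 275 with SRPIN340, and 351 and 272 with Endovion. Both controls lay below all libraries that received THZ531 or Endovion, and 1 SRPIN340 library lay between the controls. With THZ531 the log2 fold change was 0.68 ± 0.19 (SE), adjusted p = 0.015. With the combination it was 0.78 ± 0.19 (SE), adjusted p = 0.00399, and with Endovion 0.73 ± 0.19 (SE), adjusted p = 0.0145. Without control replicate 2 these log2 fold changes were 0.55 (adjusted p = 0.165), 0.65 (adjusted p = 0.0806) and 0.61 (adjusted p = 0.237). Without THZ531 replicate 2 the first was 0.43 (adjusted p = 0.365), and without Endovion replicate 1 the last was 0.54 (adjusted p = 0.368).

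**Figure D2:**
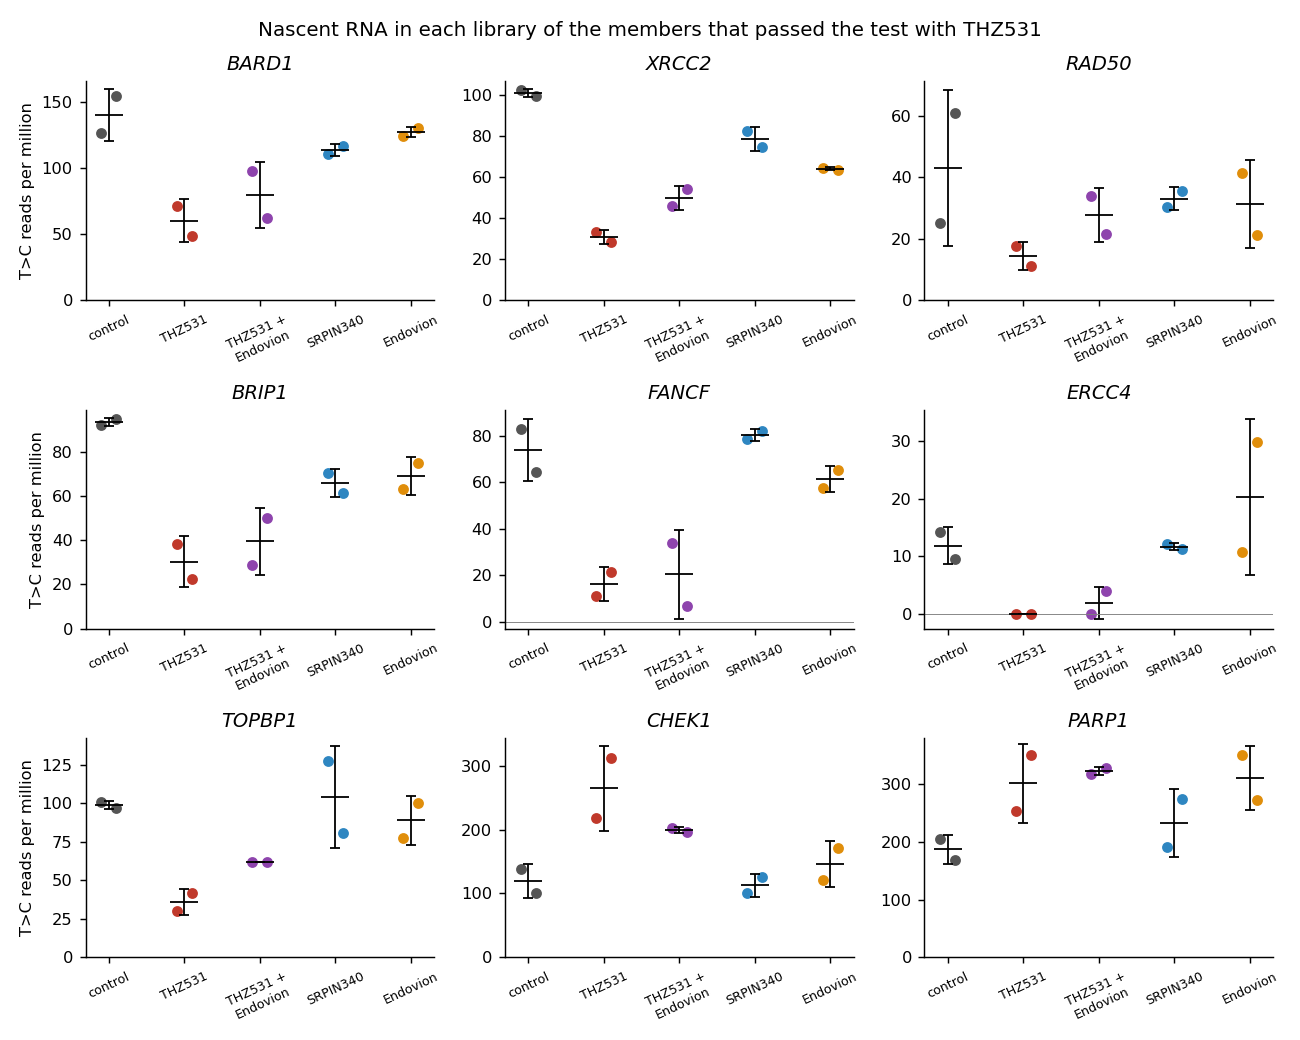
Nascent CPM, T>C reads per 1000000 (vertical axis, 1 scale per gene) in the 10 libraries for the 9 members that passed with THZ531. Points are libraries, horizontal marks are group means and bars are SD (n = 2). BARD1, XRCC2, RAD50, BRIP1, FANCF, ERCC4 and TOPBP1 are lowest in the 4 libraries with THZ531 or in the THZ531 pair, and CHEK1 is highest in those 4. The choice of genes by the test on these same libraries favours this.

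With the combination 4 members fell (XRCC2, BARD1, FANCF and BRIP1; 3.5% of all genes tested fell) and 3 rose (CHEK1, PALB2 and PARP1; 4.61% rose), or 2 without PALB2, which passed the filter on low counts only through its treated libraries. The count of 7 became 3 without control replicate 2 and 4 without combination replicate 1 or without combination replicate 2. With SRPIN340 none of the 44 passed in edgeR or in DESeq2, and 0.845% of all genes rose and 0.191% fell. An unadjusted p under 0.05 was reached by 4 of the 44, beside 1036 of all 9946 genes tested. With Endovion only PARP1 rose (2.04% of all genes rose and 0.623% fell). The median of the members was 0.06 with SRPIN340 and -0.0023 with Endovion, beside -0.01 for all genes in both cases.

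Direct tests between treatments were made on the same libraries. THZ531 against SRPIN340 lowered BARD1, BRIP1, ERCC4, FANCF, TOPBP1 and XRCC2 and raised CHEK1 (6 and 1 of 44, against 2.6% and 1.33% of all genes). THZ531 against Endovion lowered the same 6 genes and raised CHEK1 and RAD18 (6 and 2, against 2.68% and 1.72%). The 2 comparisons share the THZ531 libraries. For TOPBP1 the log2 difference was -1.56 ± 0.29 SE, adjusted p = 2.21e-04 from SRPIN340 and -1.33 ± 0.29 SE, adjusted p = 0.00233 from Endovion. Between the combination and THZ531 none of the 44 members passed (0.141% of all genes were higher and 0.181% lower). An unadjusted p under 0.05 was reached by 5 members, beside 776 of all 9946 genes tested. Of these 5 members, TOPBP1 lay at 61.9 and 62.0 nascent CPM with the combination and at 29.9 and 41.7 with THZ531 (log2 fold change 0.81 ± 0.30 SE, adjusted p = 0.387). XRCC2 differed by a log2 value of 0.68 ± 0.31 SE, adjusted p = 0.569. Against Endovion alone the combination lowered FANCF (log2 fold change -1.55 ± 0.39 SE, adjusted p = 0.0279) and ERCC4 (adjusted p = 0.0499), beside 0.855% of all genes. None of the 44 was higher (0.452% of all genes). The interaction of THZ531 and Endovion passed for no member (0.0201% and 0.282% of all genes rose and fell). Of the 44, 5 had an unadjusted p under 0.05, beside 766 of all 9946 genes tested.

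The members that fell were found at all gene spans. The 7 that fell with THZ531 spanned 3.29 to 184 kb (median 64.2 kb) and had 1 to 28 exons, and the 35 that did not pass spanned 6.17 to 328 kb (median 75.6 kb). In the 4 members under 20 kb the median nascent log2 fold change was -0.42, in the 15 of 20 to 50 kb -0.11, in the 14 of 50 to 100 kb -0.31 and in the 11 over 100 kb -0.06. The same classes of all genes tested had medians of -0.06, 0.02, 0.02 and 0.02. The number of AATAAA hexamers within introns had a median of 48 in the members that fell and 58 in those that did not pass, beside 20 over all genes tested. The members are longer than most genes, with 25 of the 44 over 50 kb.

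**Figure D3:**
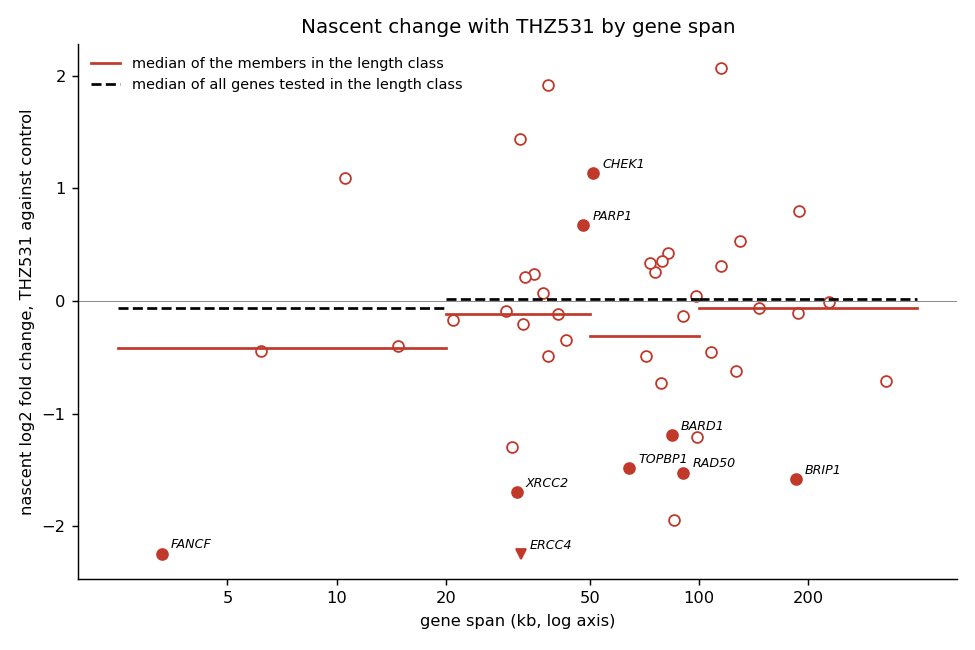
Nascent log2 fold change with THZ531 (vertical axis) against gene span in kb (horizontal log axis) for the 44 tested members. Filled symbols passed an adjusted p of 0.05, the triangle is the ERCC4 bound, and the lines are class medians of the members (-0.42, -0.11, -0.31, -0.06) and of all genes tested (-0.06, 0.02, 0.02, 0.02).

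Total RNA, in which every read of a gene counts, gave more reads per member and more calls. With THZ531 13 of 53 members fell and 7 rose (14.1% and 16.6% of all 14689 genes tested), with the combination 9 fell and 13 rose (12.4% and 16.6%), with SRPIN340 0 fell and 2 rose (0.143% and 1.82%), and with Endovion 0 fell and 9 rose (2.54% and 8.9%). The shares of members that fell with THZ531, 24.5%, and that rose, 13.2%, stand beside those backgrounds with no test of the list. Homologous recombination held 5 of the falls: BRCA1, BRCA2, BARD1, XRCC2 and RAD51D. The other 8 were FANCF, BRIP1, RAD50, BLM, ERCC4, SLX4, TOPBP1 and ATRIP, of which ATRIP shares its strand and span with TREX1.

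Tested directly in total RNA, 14 members were lower and 5 higher with THZ531 than with SRPIN340 (12% and 7.03% of all genes), and 15 lower and 2 higher than with Endovion (11.8% and 6.78%).

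BRCA1, the ubiquitin ligase partner of BARD1 and an organiser of recombination, lay at 152 and 168 total CPM in control, 82.3 and 75.8 with THZ531, 95.1 and 91.5 with the combination, 136 and 139 with SRPIN340, and 130 and 139 with Endovion. All 4 libraries with THZ531 lay below all others, and the total log2 fold change was -1.02 ± 0.11 (SE), adjusted p = 1.63e-05 with THZ531 and -0.78 ± 0.11 (SE), adjusted p = 1.43e-04 with the combination. ERCC4 lay at 10.1 and 12.8 in control, 1.29 and 2.09 with THZ531 and 3.33 and 3.77 with the combination, the largest fall among the 13 members (log2 fold change -2.78 ± 0.27 SE, adjusted p = 7.40e-06). SLX4 (log2 fold change -2.11 ± 0.35 SE, adjusted p = 4.33e-04) and FANCF (log2 fold change -1.66 ± 0.18 SE, adjusted p = 1.74e-05) followed. BRCA2 fell with THZ531 (log2 fold change -0.86 ± 0.19 SE, adjusted p = 0.00363) and rose with Endovion (log2 fold change 0.74 ± 0.18 SE, adjusted p = 0.0196).

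The 7 members that rose in total RNA with THZ531 were CHEK1, FANCI, MSH6, NBN, RAD18, RAD54L and RNF168. CHEK1 went from 54.6 and 40.3 total CPM to 94.7 and 122 (log2 fold change 1.19 ± 0.16 SE, adjusted p = 7.81e-05). RAD54L, a motor protein of recombination, went from 5.99 and 3.58 to 14.7 and 15.7 (log2 fold change 1.66 ± 0.27 SE, adjusted p = 3.89e-04), and it also rose with the combination (log2 fold change 1.68 ± 0.27 SE, adjusted p = 3.92e-04) and with Endovion (log2 fold change 1.31 ± 0.27 SE, adjusted p = 0.00715). FANCI rose with all 4 treatments, by 0.76 ± 0.16 (SE), adjusted p = 0.00209 with THZ531 and 0.95 ± 0.16 (SE), adjusted p = 0.00254 with Endovion. PALB2 rose with SRPIN340 (log2 fold change 2.04 ± 0.38 SE, adjusted p = 0.024), Endovion (log2 fold change 2.24 ± 0.38 SE, adjusted p = 0.00431) and the combination (log2 fold change 1.10 ± 0.39 SE, adjusted p = 0.0487). These rises are measured against 1 shared pair of controls, and the 9 rises with Endovion became 1 call without control replicate 2 and 3 calls without either Endovion library. With SRPIN340 none of the 2 rises was left without control replicate 2 or without SRPIN340 replicate 2, and the 22 calls with the combination became 12 without control replicate 2.

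**Figure D4:**
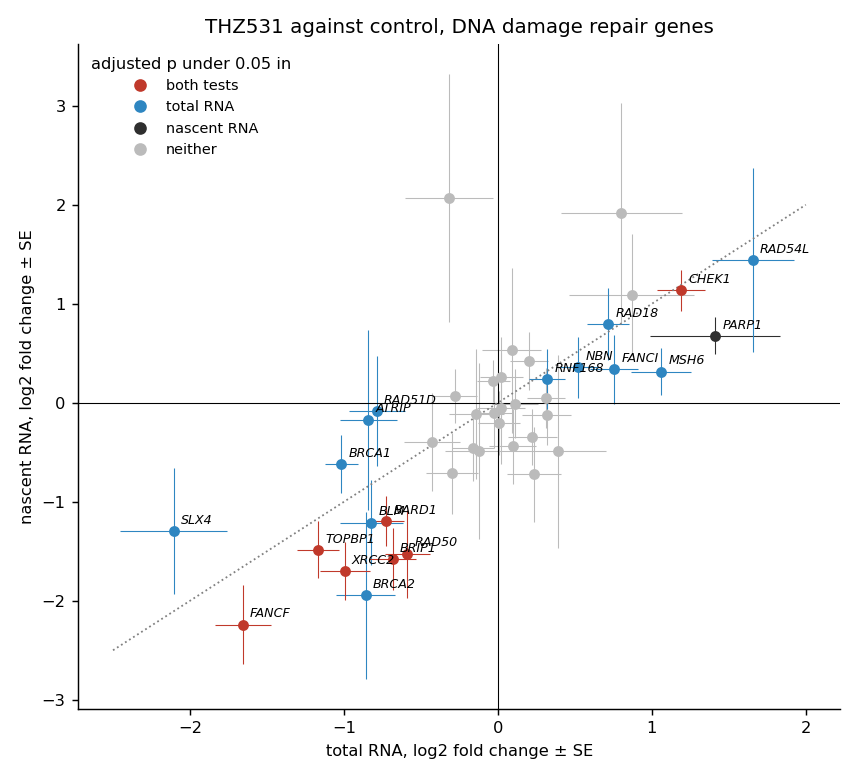
Nascent (vertical axis) against total (horizontal axis) log2 fold change with THZ531, each with its SE, for 43 tested members (ERCC4, at 0 T>C reads, is left out). Red points passed in both, blue points in total RNA only and the black point, PARP1, in nascent RNA only, and the dotted line marks equal change. That PARP1 did not pass in total RNA does not mean that its total reads were unchanged. Its main 3' end held 3837 and 2210 reads in control and 5340 and 8142 with THZ531, before scaling.

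The labelled share, T>C reads as a percentage of all reads of a gene, sets nascent RNA against the RNA already there. It includes conversions that arise without the label, which could not be measured here. Pooled over both controls it was 5.47% at the median of the 44 tested members and 5.19% over all genes tested. It was highest in FANCF (15.0%), SLX4 (15.0%), CHEK1 (13.7%) and BRIP1 (12.7%) and lowest in POLQ (1.70%), ATRIP (1.88%), RAD51D (1.96%) and BRCA1 (2.36%). The share of no member passed the test with THZ531 (0.221% of all genes fell and 0.121% rose), with SRPIN340 (0.111% and 0.0503%) or with Endovion (0.362% and 0.0804%). An unadjusted p under 0.05 was reached by 8, 5 and 7 of the 44 members, beside 1003, 810 and 927 of all 9946 genes tested. With the combination the share of PARP1 fell (0.774% of all genes fell and 0.241% rose). PARP1 was labelled at 7.90% and 8.72% in control, 6.91% and 4.13% with THZ531, 4.32% and 5.27% with the combination, 6.43% and 5.79% with SRPIN340, and 5.5001% and 5.74% with Endovion. The log2 change with the combination was -0.71 ± 0.16 SE, adjusted p = 0.0192, and it no longer passed without control replicate 2 or either combination library. BRIP1 lay at 12.7% and 12.7% in control, 7.79% and 5.56% with THZ531, 4.98% and 7.99% with the combination, 9.45% and 7.12% with SRPIN340, and 6.75% and 7.13% with Endovion, a difference from control to THZ531 that did not pass (-0.92 ± 0.32 SE, adjusted p = 0.279).

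Several members end at more than 1 place, and with THZ531 the share of reads at some of these ends changed. The test, chosen after the shares had been seen, compared each 3' end interval with the other intervals of its gene in total reads, over 5000 intervals of 2146 genes, among them 37 intervals of 15 members. With THZ531, 6 of the 22 upstream intervals of members gained reads relative to the rest of their gene (17.4% of all 2854 upstream intervals did) and none lost any (1.4%). The 6 lie in ATM, FANCA, FANCC, FANCD2, FANCI and FANCM. Of the 15 last intervals 3 lost reads relative to the rest of their gene, in FANCA, CHEK1 and RAD51C (9.04% of all 2146 did), and none gained (0.513%). All 6 upstream intervals lie within an intron of the transcript that ends at the last interval.

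Each of these 6 intronic ends holds a polyadenylation hexamer within its last 50 bases, shown in capitals in the hg38 sequence on the transcript's strand. The hexamer starts 37 bases before the end of the interval in FANCA and 47 in FANCM, so that these 2 stretches stop short of it, and 17 to 25 in the other 4. They are shown because a transcript that ends at one of them lacks the exons downstream of it.
ATM intron 4, chr11:108229333-108229362, plus strand: gttataaattataAATAAAtggcttaacag
FANCA intron 10, chr16:89798396-89798425, minus strand: ctcaATTAAAtgtgttgtaccgttcggtac
FANCC intron 13, chr9:95110512-95110541, minus strand: gatcagaAATAAAgctttgtgaaaaaatta
FANCD2 intron 9, chr3:10041533-10041562, plus strand: catactctAATAAAtgattttctcaagtca
FANCI intron 9, chr15:89264622-89264651, plus strand: gtagaAATAAAgatcatttttacaaattca
FANCM intron 11, chr14:45167373-45167402, plus strand: gaaaATTAAAcataccctaccaacccagag
The full-length ends of the 6 genes differed in this respect. The last intervals of FANCA and FANCI held neither hexamer in their last 50 bases and that of FANCM held ATTAAA, whereas those of ATM, FANCC and FANCD2 held AATAAA and are shown for comparison.
ATM last exon, chr11:108369070-108369099, plus strand: aagtgtttttgAATAAAtaattctaaaagc
FANCC last exon, chr9:95099054-95099083, minus strand: attctaAATAAAacttcagtttgcacctaa
FANCD2 last exon, chr3:10101901-10101930, plus strand: aattttacaAATAAAttctgttctaagttc
AATAAA and ATTAAA were searched on the transcript's strand in the last 50 bases of each interval. Of 10698 intervals with at least 1000 reads, 63.8% held AATAAA and 78.4% held either. The FANCM intronic end is followed by 12 A among 20 bases and the other 5 by 1 to 7, beside a median of 3 over those intervals.

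The position of these ends differed. In ATM, the kinase that answers double-strand breaks, the upstream end lies 6.32 kb from the gene's start in intron 4 of 63. In FANCA, a core complex subunit, it lies 18.6 kb in, at intron 10 of 42. In FANCD2 and FANCI, the pair that the core complex ubiquitinates, the ends lie in intron 9 of 43 and intron 9 of 36. In FANCM, the translocase that anchors the core complex, the end lies in intron 11 of 22, and in FANCC, another core subunit, in intron 13 of 14, close to the last exon.

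FANCA reached the highest upstream share of the 6 genes. Its upstream end held 109 and 98 reads in control, 749 and 510 with THZ531, 350 and 414 with the combination, 113 and 150 with SRPIN340, and 89 and 58 with Endovion. As a share of the gene's reads this was 10.02% ± 1.45 in control, 54.6% ± 1.496 with THZ531, 47.1% ± 3.04 with the combination, 13.1% ± 0.903 with SRPIN340 and 10.1% ± 2.42 with Endovion (SD, n = 2). The 4 libraries with THZ531 stood apart from the other 6. With THZ531 the end gained against the rest of the gene (relative log2 change 2.46 ± 0.24 SE, adjusted p = 1.43e-08), while the last interval, 878 and 991 reads in control and 651 and 407 with THZ531, lost in its own right (log2 fold change -0.71 ± 0.17 SE, adjusted p = 0.00239). T>C reads at the upstream end went from 2 and 1 in control to 34 and 22 with THZ531, 8 and 19 with the combination, 2 and 4 with SRPIN340, and 4 and 0 with Endovion. This end entered the nascent test through its libraries with THZ531, and no fold is given at these control counts. It was the 1 of 7 tested upstream intervals of members to pass, beside 4.79% of all 626, and nothing is read from that count. FANCA overlaps ZNF276 on the other strand, and whether reads were counted by strand is not given in the sources used here.

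FANCM came next, with an upstream end that held 2.96% and 7.14% of its reads in control, 41.1% and 35.3% with THZ531, and 23.6% and 20.8% with the combination. The counts are small, 6 and 12 reads in control and 58 and 30 with THZ531 (relative log2 change 2.94 ± 0.52 SE, adjusted p = 1.54e-04). Its last interval fell from 197 and 156 reads to 83 and 55 (log2 fold change -1.22 ± 0.27 SE, adjusted p = 0.00101), whereas the sum over the gene did not pass (log2 fold change -0.55 ± 0.22 SE, adjusted p = 0.0684). ATM went from 3.17% and 3.47% to 15.9% and 15.5% at its upstream end (relative log2 change 2.24 ± 0.47 SE, adjusted p = 7.86e-04), or from 18 and 14 reads to 82 and 54. Its last interval held 488 and 353 reads in control and 397 and 272 with THZ531 (log2 fold change -0.18 ± 0.17 SE, adjusted p = 0.458).

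FANCC went from 7.36% and 3.97% to 25.7% and 16.5% (relative log2 change 1.85 ± 0.41 SE, adjusted p = 0.00162), FANCD2 from 4.18% and 4.90% to 12.1% and 15.2% (relative log2 change 1.57 ± 0.38 SE, adjusted p = 0.00333), and FANCI from 4.39% and 6.90% to 13.9% and 10.5% (relative log2 change 1.10 ± 0.37 SE, adjusted p = 0.0437). In none of the 3 did a THZ531 library overlap with a control library. Their choice by the test on these same libraries favours this, so nothing further is read from it. FANCI rose at both ends in its own right, from 49 and 60 to 210 and 144 reads upstream (log2 fold change 1.82 ± 0.36 SE, adjusted p = 3.86e-04) and from 1066 and 810 to 1297 and 1230 at the last interval (log2 fold change 0.62 ± 0.16 SE, adjusted p = 0.00394). When 1 library was left out, ATM, FANCA and FANCM passed every time. FANCI no longer passed without either control library, either THZ531 library, either Endovion library or either combination library, FANCD2 without control replicate 1 or THZ531 replicate 2, and FANCC without THZ531 replicate 1.

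**Figure D5:**
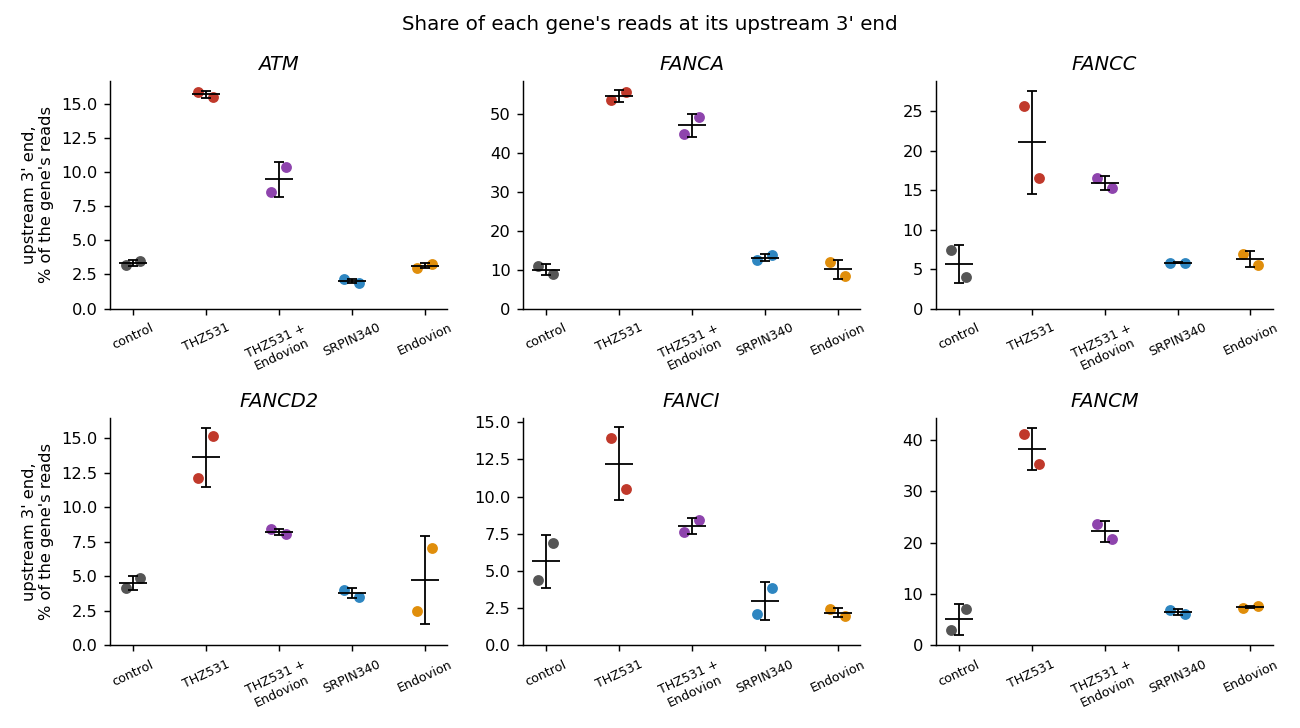
Reads at the upstream intronic 3' end as a percentage of all reads of the gene (vertical axis, 1 scale per gene) in the 10 libraries, for the 6 members that passed with THZ531. Points are libraries, horizontal marks are means and bars are SD (n = 2). In every panel the THZ531 libraries lie above the controls, which the choice of genes by that test favours, and FANCA reaches 54.6% from 10.02%.

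RAD51C and CHEK1 differ from these 6 in which end dominates. In RAD51C, another recombination gene, 85.2% and 78.8% of control reads already came from an end in intron 2 of 8, 2.76 kb from the start of a gene of 43.0 kb. This end held 2681 and 1610 reads in control and 2928 and 1939 with THZ531 (log2 fold change 0.34 ± 0.16 SE, adjusted p = 0.125), while the full-length end fell from 464 and 415 to 241 and 198 reads (log2 fold change -0.85 ± 0.20 SE, adjusted p = 0.00248). The sum over RAD51C did not pass (log2 fold change 0.22 ± 0.16 SE, adjusted p = 0.304). In CHEK1 the main end, 32.0 kb from the start, rose from 1131 and 627 to 2205 and 2059 reads (log2 fold change 1.48 ± 0.19 SE, adjusted p = 1.30e-05), and the end farther downstream held 401 and 331 reads in control and 364 and 217 with THZ531 (log2 fold change -0.21 ± 0.19 SE, adjusted p = 0.423).

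With the combination FANCA (relative log2 change 2.26 ± 0.24 SE, adjusted p = 1.82e-07), FANCC (relative log2 change 1.45 ± 0.41 SE, adjusted p = 0.0222) and FANCM (relative log2 change 2.15 ± 0.53 SE, adjusted p = 0.0142) gained at the upstream end, 3 of 22 beside 11.4% of all. The last intervals of FANCA, CHEK1 and RAD51C lost share, 3 of 15 beside 3.54%. In each of the 6 genes the mean upstream share with the combination lay between the control and the THZ531 means, for example 9.47% ± 1.28 in ATM against 15.7% ± 0.265 with THZ531 (SD, n = 2). In FANCC the libraries overlapped, with 16.55% in combination replicate 1 and 16.50% in THZ531 replicate 2. None of these differences between the combination and THZ531 passed the test (0.105% of all upstream intervals were lower). For ATM the relative log2 change was -0.73 ± 0.44 SE, adjusted p = 1. No interval of a member passed with SRPIN340 or Endovion, where 0 and 1.16% of all upstream intervals gained. The last interval of CHEK1 came close with Endovion, at 26.2% and 34.6% of the gene's reads in control and 16.7% and 15.2% with Endovion, with no overlap (relative log2 change -0.90 ± 0.24 SE, adjusted p = 0.0505). Tested directly, 7 upstream intervals of members held a larger share of their gene with THZ531 than with SRPIN340 (16.4% of all) and 7 a larger share than with Endovion (17.3%): the 6 above and ERCC4. The reads at the intron 6 end of ERCC4 were not higher, at 5 and 5 with THZ531, 4 and 6 with SRPIN340 and 7 and 7 with Endovion. Its last end held 30 and 34 reads with THZ531, 265 and 420 with SRPIN340 and 440 and 336 with Endovion.

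The other 121 listed DNA repair genes and 40 listed replication genes give the surrounding pathway. Of the 101 tested repair genes 2 fell (1.98%) and 4 rose (3.96%) in nascent RNA with THZ531, with a median of -0.15. Of 40 replication genes 1 fell (2.5%) and 1 rose (2.5%), with a median of 0.04. Over all genes tested 3.6% fell and 3.86% rose, with a median of -0.02. RFWD3, a ubiquitin ligase of crosslink repair (log2 fold change -1.11 ± 0.25 SE, adjusted p = 0.00218), and TDP1, which removes blocked topoisomerase ends (log2 fold change -1.25 ± 0.30 SE, adjusted p = 0.00332), fell. USP1, the deubiquitinase of FANCD2 (log2 fold change 0.70 ± 0.18 SE, adjusted p = 0.00958), and APEX1, the endonuclease of base excision repair (log2 fold change 1.23 ± 0.39 SE, adjusted p = 0.0359), rose. RNF4, a ubiquitin ligase, is also counted among the 4 that rose (adjusted p = 0.042). It passed the filter on low counts through treated libraries, with 4 and 8 T>C reads in control and 23 and 22 with THZ531. No fold is given at these control counts. NHEJ1, an end joining factor, is counted among the 4 that rose but passed the filter on low counts through treated libraries, with 0 and 0 T>C reads in control and 8 and 8 with THZ531. In replication PCNA, the sliding clamp, rose (log2 fold change 0.66 ± 0.18 SE, adjusted p = 0.0143) and GINS1 fell (log2 fold change -0.79 ± 0.25 SE, adjusted p = 0.0329). With the combination 3 repair genes fell and 4 rose, again with NHEJ1 and RNF4 among them, and 0 replication genes fell and 2 rose. Of all genes tested 3.5% fell and 4.61% rose. With SRPIN340 0 repair genes fell and 1 rose, and no replication gene passed (0.191% of all genes fell and 0.845% rose). With Endovion 0 repair genes fell and 2 rose (0.623% of all genes fell and 2.04% rose). Of the 40 replication genes 2 fell (5%) and 0 rose. These 2, named after their values were seen, were RFC3, a subunit of the clamp loader (log2 fold change -0.63 ± 0.18 SE, adjusted p = 0.034), and DTL, a substrate receptor of a ubiquitin ligase (log2 fold change -0.56 ± 0.16 SE, adjusted p = 0.0451). In total RNA with THZ531, 30 of the 119 tested repair genes fell (25.2%) and 19 rose (15.97%). The members stood at 24.5% and 13.2%, and all genes tested at 14.1% and 16.6%. Of 40 replication genes 7 fell (17.5%) and 9 rose (22.5%).

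The remaining 10 members, CHEK2, CLSPN, FANCB, FANCM, LIG4, MDC1, RAD51B, WRN, XRCC3 and XRCC4, had 0 to 17 T>C reads per library and were not tested in nascent RNA. FANCB and MDC1 had no T>C read in any library, and MDC1 had no read at all. In total RNA 53 members were tested, and of these 10 WRN rose with the combination (log2 fold change 1.26 ± 0.37 SE, adjusted p = 0.0187) and Endovion (log2 fold change 1.62 ± 0.37 SE, adjusted p = 0.0124) and XRCC4 with the combination (log2 fold change 1.12 ± 0.40 SE, adjusted p = 0.0476). CHEK2, PMS2, FANCD2 and PARP1 have near-identical stretches elsewhere in the genome. RAD54L, MSH6, FANCI and RECQL overlap LRRC41, FBXO11, POLG and PYROXD1 on the other strand. SLX4, RAD51D, TP53BP1, ERCC1 and FANCL likewise overlap ENSG00000261938, RNU6-840P, TUBGCP4, POLR1G and VRK2. Reads of all these members could be split or shared, and their values are uncertain to that extent.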

How the data were processed

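SLAM-seq libraries (QuantSeq 3' end reads, UMIs in the libraries) of 22RV1 cells were used, 2 per group. The authors aligned and quantified them with SLAM-DUNK on hg38 and deposited, per 3' end interval, counts of all reads and counts of T>C reads. The submitters' processing notes also name Bowtie2 2.3.4.1, SAMtools 1.6 and DESeq2 1.38.2. Whether UMIs or strand entered the counts is not given in the sources used here. Reads therefore cannot be taken as independent molecules, and errors cover less than all sources of error. The authors also deposited the conversion rate, a fraction of covered T positions, and a read score scaled to mapped reads, from which only the total of mapped reads was taken.

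Transcript IDs were matched to genes of the GENCODE 44 annotation. Each file listed 104653 intervals. Where intervals of a gene overlapped, the best covered was kept (57539 in all), because in a plain sum 48.8% of T>C reads were counted again, and kept intervals were summed per gene. Reads on genes numbered 19315393 to 30047684 per library, of which 5.04% to 5.70% were T>C reads. Counts were tested with edgeR 4.0.16 (R 4.3.3, TMM scaling, filterByExpr, quasi-likelihood test, all 10 libraries with group means) and Benjamini-Hochberg adjustment over all genes tested. SE is the absolute log2 fold change divided by the root of F. The labelled share was tested as the interaction of treatment and read class with the library as a block. Intervals of a gene were compared with edgeR's diffSpliceDGE, although a description with no test had been planned. Direct tests of THZ531 against SRPIN340 and against Endovion and the interaction were also added after values had been seen. Methods were tested on simulated data. Alternatives were DESeq2 1.42.0, RLE scaling, no filter, plain sums, the best interval only, a fit of 2 groups, total-read scaling, a replicate block and leaving out each library.

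Named members are those at an adjusted p under 0.05 in nascent RNA in any treatment, at most 5 per role, the member of a role with most T>C reads where none passed, and any other member by choice. Of the other lists at most 4 genes per direction were named. The members and lists were chosen with earlier results of these data known. The combination of THZ531 and SRPIN340 was not analysed here.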

Additional observations from a re-analysis of the deposited data

How the results depend on the processing

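Over 18 alternatives, the 17 nascent gene effects gave 306 values, of which 266 kept their direction and side of the threshold, 40 kept the direction but no longer passed, and 0 reversed. With THZ531, XRCC2, BRIP1, TOPBP1 and CHEK1 passed under all 18, and ERCC4 and FANCF under all but the plain sum of intervals. RAD50 also missed with DESeq2 (adjusted p = 0.061) and in the fit of 2 groups (adjusted p = 0.0511), and PALB2 with the combination in the fit of 2 groups (adjusted p = 0.0624). With the combination, BARD1 and CHEK1 each passed under 13 of the 18, and both missed with DESeq2 (adjusted p = 0.0549 and 0.0592) and with the plain sum (adjusted p = 0.11 and 0.134), and BARD1 also with the best interval only (adjusted p = 0.101). The plain sum, which counts overlapping reads again, called 5 members in nascent RNA with THZ531, 0 with the combination and 0 with Endovion, where the median for the combination was -0.0038. Scaling by total reads called 0 with Endovion, with a median of -0.10. In total RNA with SRPIN340 (2 calls), DESeq2 called 6, RLE scaling 1, no filter 9, and the plain sum, the fit of 2 groups and the replicate block 0 each.

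Leaving out single libraries gave 6 to 10 nascent calls with THZ531, 3 to 7 with the combination, 0 to 1 with SRPIN340 and 0 to 2 with Endovion. In total RNA it gave 15 to 25, 12 to 24, 0 to 8 and 1 to 12, where 8 and 1 came without control replicate 1 and control replicate 2. For the labelled share it gave 0 to 1, 0 to 2, 0 to 0 and 0 to 1. The nascent medians ranged from -0.36 to 0.06 with THZ531, from -0.15 to 0.078 with the combination (above 0 without control replicate 1), from -0.021 to 0.29 with SRPIN340 (below 0 without SRPIN340 replicate 2) and from -0.040 to 0.084 with Endovion. Upstream ends raised with THZ531 numbered 4 to 6.

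The replicate numbers did not pair the libraries: deviations of same-numbered libraries correlated at -0.083 to 0.072 over 10 pairs. With the number as a block, nascent calls were 9, 7, 0 and 1 with THZ531, the combination, SRPIN340 and Endovion, total calls 19, 20, 0 and 9, share calls 0, 1, 0 and 0, and raised upstream ends 6. By transcript span in place of gene span the class medians with THZ531 were -0.42, -0.01, -0.29 and -0.08. Depth limits nascent values: 10 members had too few T>C reads to test.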
